A study of Homo sapiens with 9 samples.

Results

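The core pluripotency factors described here are POU5F1, SOX2, NANOG, LIN28A, LIN28B, SALL4, DPPA4, DPPA2, ZFP42 and PRDM14. They were represented by every probe set whose annotation names a member, including a POU5F1 probe set that also names other genes, which gave 18 probe sets of 10 genes out of 54675 probe sets on the array. Human embryonic stem cells of the line HSF-6 were profiled on 9 Affymetrix arrays in 3 groups of 3. The groups were treated HSF-6(8), grown with butyrate and DZNep; treated HSF-6(S9), grown with the same pair of compounds; and control HSF-6(8), grown without them. Per the labels, all cells had been kept for 11 passages in their condition and were grown for 6 days before collection with TrypLE. Butyrate blocks histone deacetylases, and DZNep (3-deazaneplanocin A) blocks the hydrolase that clears S-adenosylhomocysteine, which impairs methyltransferases such as EZH2. An untreated HSF-6(S9) group was not analysed here, so in the comparison of treated HSF-6(S9) with control HSF-6(8) the subline and the compounds cannot be told apart. Both compounds were always given together, so the effect of each cannot be told apart either. The labels mark the 3 arrays of a group only by primes, called the first, the second and the third here, and do not say whether they came from separate cultures, so p-values measure the spread between these arrays, which may be technical.

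POU5F1 (OCT4), SOX2 and NANOG are transcription factors that bind many of the same enhancers in embryonic stem cells, including their own, and so keep each other's transcription going. POU5F1 and SOX2 bind side by side on a composite DNA element. SALL4 and PRDM14 are zinc finger proteins that repress differentiation genes and help maintain POU5F1 transcription. LIN28A and LIN28B are RNA-binding proteins that block maturation of the let-7 microRNAs. DPPA2 and DPPA4 form a heterodimer that binds CpG-rich promoters, and ZFP42 (REX1) is a zinc finger protein widely used as a marker of undifferentiated cells.

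The 250 bases before the transcription start of NANOG and SOX2 are shown because they hold matches to the motifs of POU5F1 and SOX2, the factors whose levels are described next to them. The sequences are from RefSeq on GRCh38.p14, NANOG at chr12:7789152-7789401 on the plus strand and SOX2 at chr3:181711675-181711924 on the plus strand. Capitals mark matches on either strand to ATGCAAA, part of the octamer bound by POU factors, and to ACAANGG, a loose SOX motif. N stands for any base, so matches such as ACAAGGG in NANOG are loose ones.

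NANOG: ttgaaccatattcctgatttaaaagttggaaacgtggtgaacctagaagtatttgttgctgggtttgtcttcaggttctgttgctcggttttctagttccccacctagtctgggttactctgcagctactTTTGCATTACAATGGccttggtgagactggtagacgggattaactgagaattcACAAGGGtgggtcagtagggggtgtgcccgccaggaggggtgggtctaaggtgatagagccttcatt

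SOX2: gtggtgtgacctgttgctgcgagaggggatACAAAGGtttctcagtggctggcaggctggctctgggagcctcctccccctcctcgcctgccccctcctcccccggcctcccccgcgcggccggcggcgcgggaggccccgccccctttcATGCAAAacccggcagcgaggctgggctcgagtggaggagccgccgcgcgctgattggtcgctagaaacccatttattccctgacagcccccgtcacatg

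In NANOG the first run of capitals joins a POU match and a SOX match and also holds the composite element, searched on both strands as CATTGT, any base, then ATGCAAA, which overlaps both. Over windows from 250 bases before to 50 bases after the start, ATGCAAA matched 4.46% of 35116 RefSeq promoters and ACAANGG about 12%. The composite element matched 3 of the 35116 promoters (0.00854%), and NANOG was among them. Promoters were matched for 6 of the 10 member genes. Besides NANOG and SOX2, the windows of DPPA2 and ZFP42 each held a match to ACAANGG, and the windows of DPPA4 and LIN28B held none of the motifs. These matches describe letters in the windows and were not tied to binding in these cells.

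The deposited values are MAS5 signals, a linear brightness per probe set scaled to the same trimmed mean on each array, so levels are compared between arrays within a probe set, or within a sum over a marker list, and probe sets are not ranked against each other. POU5F1, SOX2, NANOG, LIN28A, DNMT3B and PODXL, markers of undifferentiated embryonic stem cells, the labelled cell type, each had a probe set above the array median on all 9 arrays, so none was absent. The mean signal of the first control array was 918 and that of the second treated HSF-6(S9) array 940, against 794 to 823 on the other 7 arrays. The third arrays stood apart in 18S ribosomal RNA, whose 3′ probe set read 850 in treated HSF-6(8), 1517 in treated HSF-6(S9) and 963 in control HSF-6(8), against 385 to 542 on the first and second arrays. The third treated HSF-6(8) array stood apart in endoderm markers, as described further below. Changes are log2 differences of signal + 16 from 1 limma fit over all 9 arrays and 29328 probe sets that passed a filter on low values, which understates changes of dim probe sets. A probe set was called when its Benjamini-Hochberg adjusted p was under 0.05 and its change at least 2-fold. Of the 18 member probe sets 17 passed the filter, and the other, a dim DPPA4 probe set, is described with its own fit.

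None of the 17 member probe sets was called in any of the 3 comparisons by limma. In treated against control HSF-6(8) 0.3% of all tested probe sets were called, in treated HSF-6(S9) against control HSF-6(8) 0.389%, and between the treated sublines 0.0%. At an unadjusted p under 0.05 the members counted 1, 2 and 0 in that order, against 7.52%, 11.3% and 2.43% of all tested probe sets. These were NANOG probe sets in this fit, all lower, and 2.41% and 5.26% of all tested probe sets were lower at that p in the comparisons with control. With the prime marks as a block the calls over all probe sets were 148 in place of 88 in treated against control HSF-6(8) and 233 in place of 114 in treated HSF-6(S9) against control HSF-6(8), and no member was called. In that blocked fit the members with an unadjusted p under 0.05 were 3 in treated against control HSF-6(8) (SALL4, NANOG 231079_at and DPPA2), where 11.0% of all tested probe sets were. They were 3 in treated HSF-6(S9) against control HSF-6(8) (PRDM14 and both NANOG probe sets), against 15.8% of all, and 1 between the treated sublines (DPPA2), against 4.57%. The median change of the 17 member probe sets was -0.11 in treated against control HSF-6(8), -0.22 in treated HSF-6(S9) against control HSF-6(8) and -0.09 between the treated sublines. The medians over all tested probe sets were 0.02, -0.01 and -0.04 in the same order. Changes below 0 numbered 11, 11 and 10 of the 17 members, where 47.5%, 51.8% and 55.4% of all tested probe sets were below 0.

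**Figure D1:**
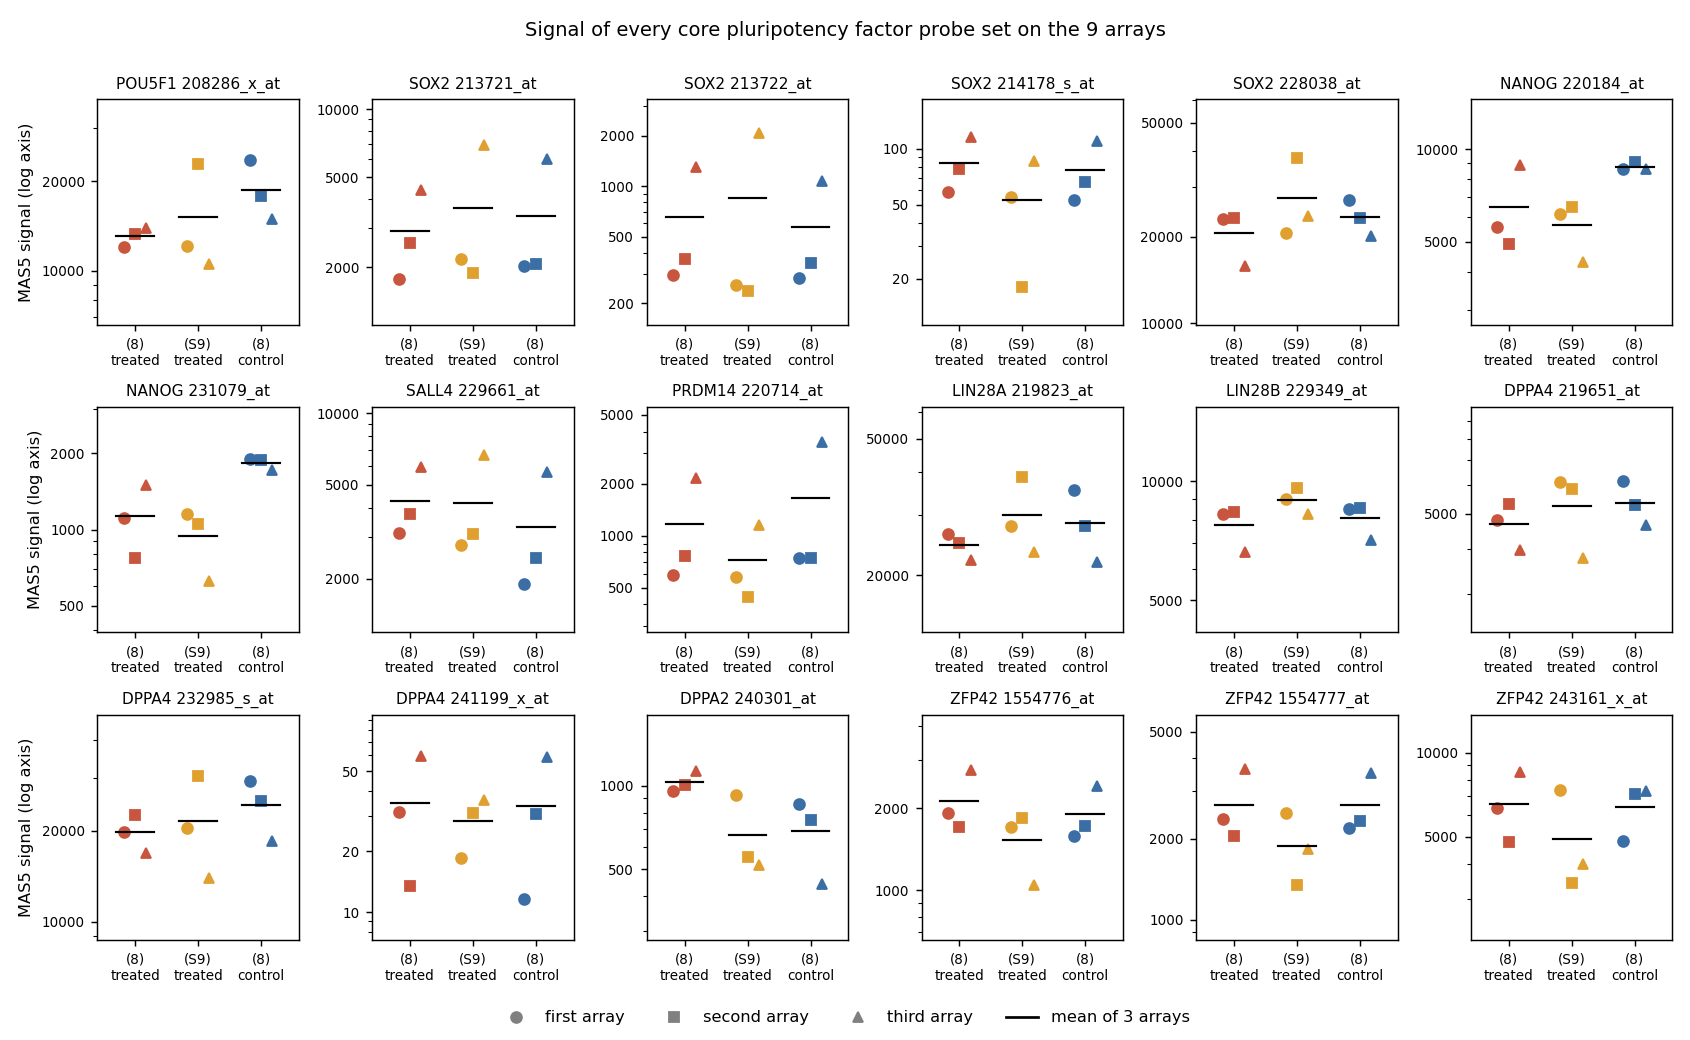
MAS5 signal (log axis) of all 18 member probe sets on the 9 arrays, with the treated HSF-6(8), treated HSF-6(S9) and control HSF-6(8) groups from left to right; circles, squares and triangles are the first, the second and the third arrays and bars the means of 3 arrays. NANOG 231079_at is the panel in which both treated groups lie wholly below control, from 629 to 1507 against 1716 to 1908. The triangles lie above the other arrays in every group in SOX2 213721_at, SOX2 213722_at, SALL4 and PRDM14. Among these, the excess on the log2 scale is smallest for SALL4 in treated HSF-6(8), at 0.79.

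NANOG, the homeodomain factor of the trio, had the lowest p-value of the members in both comparisons with control in the fit without a block, but its change did not pass the threshold over all probe sets. NANOG 231079_at read 1110, 771 and 1507 on the first, the second and the third treated HSF-6(8) arrays and 1157, 1054 and 629 on the treated HSF-6(S9) arrays, against 1908, 1888 and 1716 on the control HSF-6(8) arrays. Every treated array was below every control array. The change was -0.74 ± 0.30 (SE, n = 3 per group) in treated against control HSF-6(8), with a limma p of 0.032 and an adjusted p of 0.574. In treated HSF-6(S9) against control HSF-6(8) it was -0.99 ± 0.30, with a limma p of 0.00819 and an adjusted p of 0.231. On the fold scale the treated HSF-6(S9) level was 0.503 times the control level, with a 95% interval of 0.317 to 0.798.

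The other NANOG probe set, 220184_at, gave smaller differences in the same direction. It read 5605, 4915 and 8911 in treated HSF-6(8) and 6145, 6503 and 4306 in treated HSF-6(S9), against 8647, 9070 and 8598 in control HSF-6(8). The treated HSF-6(S9) arrays lay below all controls, whereas the third treated HSF-6(8) array lay within the control range. The limma change was -0.48 ± 0.26 (adjusted p = 0.793) in treated against control HSF-6(8) and -0.66 ± 0.26 (adjusted p = 0.378) in treated HSF-6(S9) against control HSF-6(8). Both probe sets kept a negative change against control under all 22 alternative settings.

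The NANOG difference depended on which arrays were compared. In treated against control HSF-6(8), the first and second arrays gave -1.02 for 231079_at and -0.75 for 220184_at, while the third arrays alone gave -0.19 and 0.05. In treated HSF-6(S9) against control HSF-6(8), the first and second arrays gave -0.77 and -0.49 for the same probe sets and the third arrays -1.43 and -0.99. The third treated HSF-6(8) array was thus the highest of its group for both NANOG probe sets and the third treated HSF-6(S9) array the lowest of its group. The third treated HSF-6(8) array also carried the highest endoderm marker sum of all 9 arrays, and the part of that array's other features in its NANOG level was not tested. In bulk RNA, fewer NANOG-positive cells and less NANOG RNA per cell cannot be told apart.

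POU5F1, the POU factor, was measured by 1 probe set, 208286_x_at, whose annotation also names POU5F1B, POU5F1P3 and POU5F1P4, so signal from these related sequences cannot be told apart from that of POU5F1. It read 12071, 13323 and 13964 in treated HSF-6(8) and 12094, 22758 and 10562 in treated HSF-6(S9), against 23496, 17760 and 14957 in control HSF-6(8). All treated HSF-6(8) arrays were below all controls, by a narrow margin at the third arrays, and the treated HSF-6(S9) arrays overlapped the controls through their second array. The change was -0.49 ± 0.30 (limma adjusted p = 0.862) in treated against control HSF-6(8), with a 95% interval of -1.17 to 0.18. It was -0.37 ± 0.30 (limma adjusted p = 0.721) in treated HSF-6(S9) against control HSF-6(8).

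The highest POU5F1 reading of the controls and the highest of treated HSF-6(S9) came from the arrays with the highest mean signal. With both of those arrays left out, a setting chosen after seeing the data, the POU5F1 change was -0.32 in treated against control HSF-6(8) and -0.53 in treated HSF-6(S9) against control HSF-6(8). SOX2 228038_at, LIN28A and DPPA4 232985_s_at were also highest within their groups on these 2 arrays. The part of array brightness in these levels was not tested.

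SOX2, the HMG-box partner of POU5F1, was measured by 4 probe sets that did not behave alike. SOX2 228038_at read 23042, 23348 and 15792 in treated HSF-6(8) and 20649, 37824 and 23596 in treated HSF-6(S9), against 27005, 23263 and 20145 in control HSF-6(8). The groups overlapped, and the limma change was -0.19 ± 0.27 (adjusted p = 0.999) in treated against control HSF-6(8) and 0.18 ± 0.27 (adjusted p = 0.870) in treated HSF-6(S9) against control HSF-6(8). The 95% interval of the first difference ran from -0.80 to 0.42, so a change of 2-fold in either direction lay outside it.

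For SOX2 213721_at and 213722_at the spread within groups was far larger than any difference between them. SOX2 213722_at read 296, 367 and 1305 in treated HSF-6(8) and 256, 238 and 2063 in treated HSF-6(S9), against 283, 350 and 1072 in control HSF-6(8). SOX2 213721_at read 1786, 2560 and 4378 in treated HSF-6(8) and 2185, 1885 and 6910 in treated HSF-6(S9), against 2034, 2061 and 6048 in control HSF-6(8). In each group the third array was the highest, and the groups overlapped throughout. Their changes against control lay between -0.11 and 0.14, with standard errors of 0.59 for 213721_at and 0.88 for 213722_at. The dim SOX2 214178_s_at read 58.9, 78.2 and 115 in treated HSF-6(8) and 54.9, 18.1 and 85.6 in treated HSF-6(S9), against 52.9, 66.5 and 110 in control HSF-6(8), again with the third array highest in each group.

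SALL4 and PRDM14 showed the same excess of the third arrays. SALL4 229661_at read 3138, 3752 and 5929 in treated HSF-6(8) and 2791, 3108 and 6661 in treated HSF-6(S9), against 1899, 2439 and 5642 in control HSF-6(8). PRDM14 220714_at read 592, 760 and 2164 in treated HSF-6(8) and 578, 441 and 1152 in treated HSF-6(S9), against 744, 746 and 3471 in control HSF-6(8). Within the first, the second and the third arrays alike, SALL4 was higher in both treated groups than in control, and PRDM14 was lower in treated HSF-6(S9) than in control, but the groups as a whole overlapped. The SALL4 change was 0.47 ± 0.47 (limma adjusted p = 0.979) in treated against control HSF-6(8) and 0.38 ± 0.47 (adjusted p = 0.832) in treated HSF-6(S9) against control HSF-6(8). The PRDM14 change was -0.32 ± 0.68 (limma adjusted p = 0.999) and -0.89 ± 0.68 (adjusted p = 0.696) in the same comparisons.

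Taking the third arrays as a block narrowed these errors without a call. PRDM14 in treated HSF-6(S9) against control HSF-6(8) was then -0.89 ± 0.24 (limma adjusted p = 0.113), the lowest adjusted p of any member in any comparison and setting run. SALL4 in treated against control HSF-6(8) was 0.47 ± 0.19 (limma adjusted p = 0.370) in that fit.

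**Figure D2:**
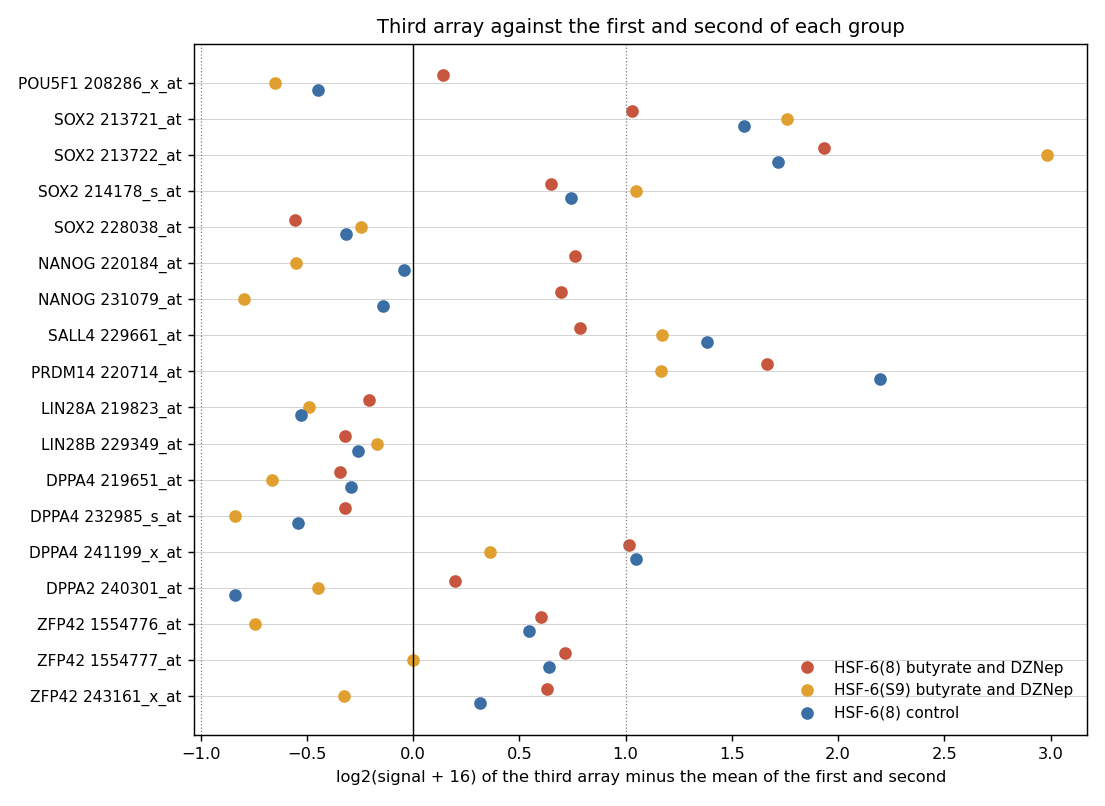
Log2(signal + 16) of the third array minus the mean of the first and second arrays of its group, for all 18 member probe sets, with treated HSF-6(8), treated HSF-6(S9) and control HSF-6(8) as separate points; dotted lines mark 2-fold. SOX2 213721_at, SOX2 213722_at and PRDM14 lie beyond 2-fold in all 3 groups, from 1.03 to 2.98, while SOX2 228038_at lies below 0 in all 3.

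The third-array excess differed between probe sets of one gene. It reached 1.93 in treated HSF-6(8), 2.98 in treated HSF-6(S9) and 1.72 in control HSF-6(8) for SOX2 213722_at, and 1.03, 1.76 and 1.55 for SOX2 213721_at. SOX2 228038_at of the same gene stood at -0.55, -0.24 and -0.31. PRDM14 stood at 1.67, 1.16 and 2.20 and SALL4 at 0.79, 1.17 and 1.38. Of the 17 tested member probe sets 3 were at least 2-fold higher on the third array in all 3 groups, as were 2.7% of all tested probe sets, and 0 of 17 were at least 2-fold lower, against 0.174% of all. The 3′ to 5′ signal ratios of ACTB (1.18 to 1.67) and GAPDH (0.976 to 1.21) did not set the third arrays apart, whereas the 18S ribosomal RNA signal did. The part of either in the excess was not tested, and the positions of the probes in the transcripts were not analysed here.

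Of the LIN28 proteins, LIN28B had the narrowest interval of the members. LIN28B 229349_at read 8247, 8349 and 6641 in treated HSF-6(8) and 9026, 9620 and 8266 in treated HSF-6(S9), against 8506, 8544 and 7117 in control HSF-6(8). Its change was -0.06 ± 0.18 in treated against control HSF-6(8), with a 95% interval of -0.46 to 0.34, and 0.16 ± 0.18 in treated HSF-6(S9) against control HSF-6(8), with an interval of -0.24 to 0.56. LIN28A 219823_at read 26368, 24893 and 22173 in treated HSF-6(8) and 27899, 38677 and 23345 in treated HSF-6(S9), against 35481, 27843 and 21802 in control HSF-6(8). Its change was -0.19 ± 0.25 and 0.08 ± 0.25 in the same comparisons. For both genes the groups overlapped, and a 2-fold change lay outside the interval in each comparison with control.

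DPPA2 and DPPA4 are neighbours on chromosome 3 with 0 annotated genes between them, and no probe set of either was called in any comparison. DPPA2 240301_at read 954, 1009 and 1128 in treated HSF-6(8) and 922, 552 and 519 in treated HSF-6(S9), against 862, 754 and 444 in control HSF-6(8). Treated HSF-6(8) lay above both other groups with no overlap, and treated HSF-6(S9) overlapped control. The change was 0.62 ± 0.30 (limma adjusted p = 0.712) in treated against control HSF-6(8) and -0.67 ± 0.30 (adjusted p = 1.000) in treated HSF-6(S9) against treated HSF-6(8). The third arrays carried most of the first difference, at 1.32, with 0.28 over the first and second arrays.

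DPPA4 232985_s_at read 19840, 22619 and 16937 in treated HSF-6(8) and 20384, 30304 and 13910 in treated HSF-6(S9), against 29153, 25109 and 18562 in control HSF-6(8). DPPA4 219651_at read 4795, 5305 and 3974 in treated HSF-6(8) and 6121, 5855 and 3773 in treated HSF-6(S9), against 6134, 5278 and 4647 in control HSF-6(8). Both probe sets were lowest on the third array of every group, and all groups overlapped. Their changes against control lay between -0.28 and -0.05. The third DPPA4 probe set, 241199_x_at, read 11.6 to 59.5 over the 9 arrays, below the filter, and its change in a fit without the filter was 0.04 ± 0.43 in treated against control HSF-6(8).

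ZFP42, the REX1 gene, had 3 probe sets that gave close changes in each comparison. ZFP42 1554777_at read 2367, 2046 and 3618 in treated HSF-6(8) and 2485, 1344 and 1829 in treated HSF-6(S9), against 2199, 2320 and 3525 in control HSF-6(8). ZFP42 243161_x_at read 6358, 4785 and 8537 in treated HSF-6(8) and 7332, 3424 and 3995 in treated HSF-6(S9), against 4852, 7088 and 7296 in control HSF-6(8). ZFP42 1554776_at read 1919, 1711 and 2754 in treated HSF-6(8) and 1702, 1834 and 1048 in treated HSF-6(S9), against 1582, 1714 and 2412 in control HSF-6(8). Treated HSF-6(8) and control were each highest on the third array for all 3 probe sets, and treated HSF-6(S9) was not. The changes were -0.01, 0.02 and 0.15 in treated against control HSF-6(8), and -0.52, -0.44 and -0.33 in treated HSF-6(S9) against control HSF-6(8), with standard errors from 0.29 to 0.33 and limma adjusted p-values from 0.600 to 0.999.

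**Figure D3:**
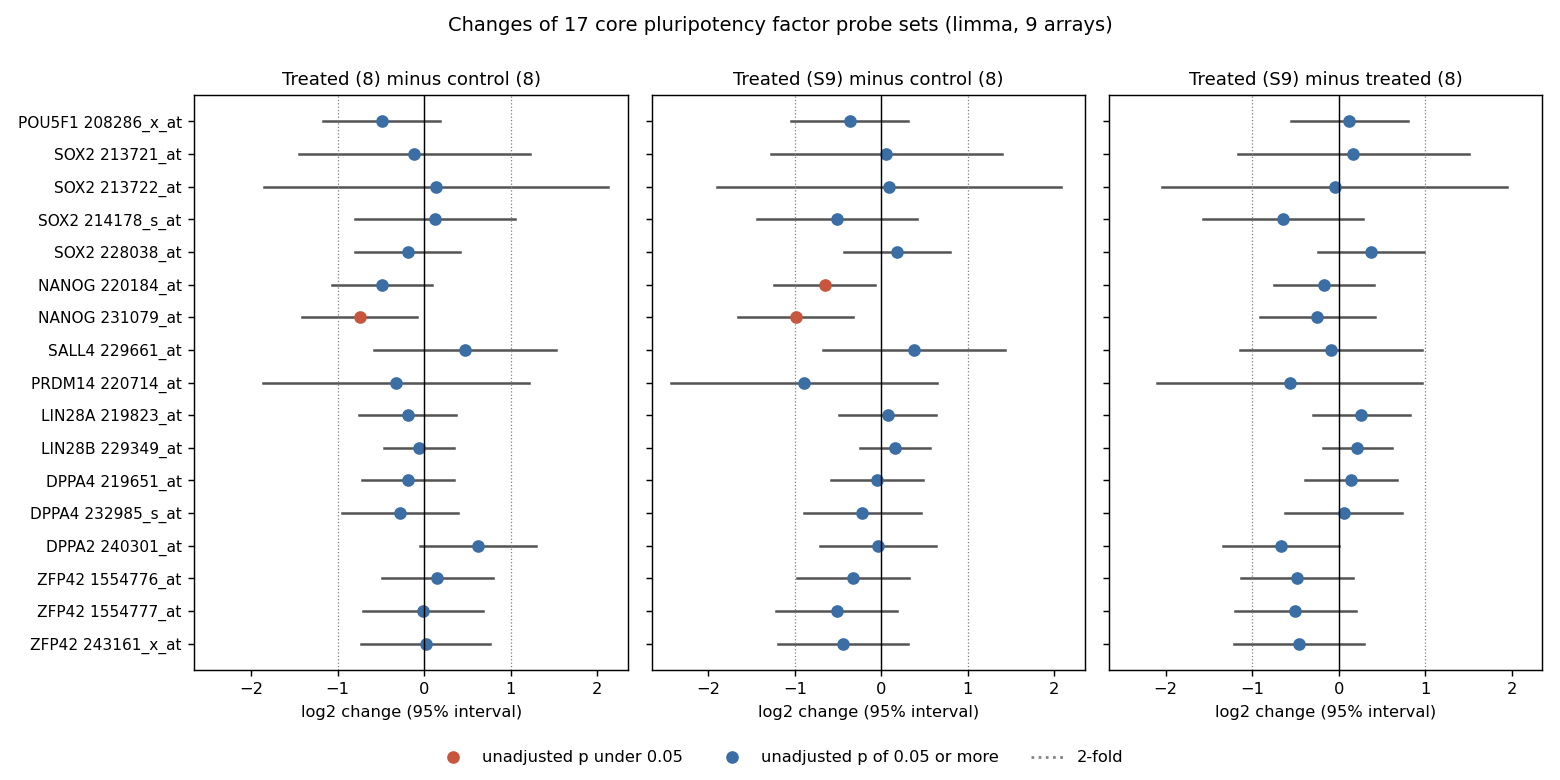
Log2 change with its 95% interval from the limma fit for the 17 tested member probe sets, with one panel for treated against control HSF-6(8), one for treated HSF-6(S9) against control HSF-6(8) and one between the treated sublines; dotted lines mark 2-fold and red points an unadjusted p under 0.05. Red points are NANOG 231079_at in the first panel (-0.74) and both NANOG probe sets in the second (-0.66 and -0.99), and the interval of SOX2 213722_at is the widest in every panel.

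Counting groups that did not overlap gave NANOG 231079_at and POU5F1 as lower and DPPA2 as higher in treated against control HSF-6(8), where 6.04% of all tested probe sets were wholly lower and 8.82% wholly higher. In treated HSF-6(S9) against control HSF-6(8) both NANOG probe sets were lower, against 8.35% of all. Between the treated sublines DPPA2 was lower in HSF-6(S9), against 4.05% of all. For 17 probe sets those shares amount to 1.03 lower and 1.5 higher in the first comparison, 1.42 lower in the next and 0.688 lower between the sublines, so the members' counts of 2, 1, 2 and 1 were near the background. The comparisons with control share the same 3 control arrays, so they do not count as separate evidence for a member.

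In treated HSF-6(S9) against treated HSF-6(8), 0 of 17 members were called by limma and 0 had an unadjusted p under 0.05 in the fit without a block. The changes lay between -0.67 for DPPA2 and 0.37 for SOX2 228038_at. NANOG stood at -0.17 ± 0.26 for 220184_at and -0.25 ± 0.30 for 231079_at, and POU5F1 at 0.12 ± 0.30 with a 95% interval of -0.55 to 0.80. Over the first and second arrays both NANOG probe sets were at 0.25 to 0.27, and over the third arrays at -1.24 and -1.05, so the sign of this difference turned with the arrays used.

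The genes whose pattern over the 9 arrays was most like that of a member were found by Pearson correlation of log2 signals, as a description, among probe sets that share arrays, groups and scaling. POU5F1 was most like CKS2 (r = 0.995), CD151 (r = 0.989) and DPM2 (r = 0.986). SOX2 228038_at was most like HSBP1 (r = 0.982), MDH1 (r = 0.978) and ATP5F1C (r = 0.977). NANOG 220184_at was most like CPT1A (r = 0.984), BUB1 (r = 0.969) and GPR107 (r = 0.958).

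Other genes of the pluripotent state were examined as lists. In the wider pluripotency network 23 of 27 genes had a probe set of a single gene, and 0 of its 36 tested probe sets were called by limma in any comparison. Its unadjusted p was under 0.05 for 5 of 36 probe sets in treated against control HSF-6(8), 14 of 36 in treated HSF-6(S9) against control HSF-6(8) and 3 of 36 between the treated sublines, beside 7.52%, 11.3% and 2.43% of all tested probe sets. The list medians were -0.20, -0.29 and -0.14. LEFTY1, a secreted Nodal inhibitor, read 1382, 833 and 8231 in treated HSF-6(8) and 1401, 861 and 1428 in treated HSF-6(S9), against 11324, 9819 and 8256 in control HSF-6(8). All treated arrays of LEFTY1 lay below all controls, with the third treated HSF-6(8) array close to the lowest control. Its change was -2.19 ± 0.70 (limma adjusted p = 0.383) in treated against control HSF-6(8) and -3.0 ± 0.70 (adjusted p = 0.133) in treated HSF-6(S9) against control HSF-6(8). With the third array left out of the treated HSF-6(8) group, the LEFTY1 change against control HSF-6(8) was -3.16, and with the second left out it was -1.52. POLR3G, an RNA polymerase III subunit abundant in stem cells, had 2 probe sets. POLR3G 206653_at was at -0.99 ± 0.28 (limma adjusted p = 0.286) in treated against control HSF-6(8) and -1.31 ± 0.28 (adjusted p = 0.111) in treated HSF-6(S9) against control HSF-6(8). POLR3G 206654_s_at was at -0.74 ± 0.32 (limma adjusted p = 0.653) and -1.74 ± 0.32 (adjusted p = 0.0714) in the same comparisons.

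Among the naive state genes 1 of 13 tested probe sets was called in each comparison with control, beside 0.3% and 0.389% of all tested. The unadjusted limma p was under 0.05 for 3 of 13 in each of these comparisons, beside 7.52% and 11.3%. DPPA5, an RNA-binding protein that carries a DPPA name but is no partner of the DPPA2 and DPPA4 heterodimer, read 1589, 5274 and 3442 in treated HSF-6(8) and 1447, 6028 and 5990 in treated HSF-6(S9), against 251, 231 and 193 in control HSF-6(8). It rose by 3.69 ± 0.58 (limma adjusted p = 0.0459) in treated HSF-6(8) and by 3.97 ± 0.58 (adjusted p = 0.0310) in treated HSF-6(S9), and every treated array was above every control. In treated HSF-6(8) the DPPA5 call was lost on leaving out 1 array at a time for each control array, for all treated HSF-6(8) arrays except the first, and for the second treated HSF-6(S9) array (adjusted p from 0.0779 to 0.171). In treated HSF-6(S9) it was lost in the same way for each control array and for all treated HSF-6(S9) arrays except the first (adjusted p from 0.102 to 0.121), and over all settings run its change stayed between 3.30 and 4.16 in treated HSF-6(8) and between 3.53 and 4.65 in treated HSF-6(S9).

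Lists tied to single members held no call in any comparison by limma. Of the LIN28 and let-7 axis, 28 probe sets of 11 genes were tested, with medians of -0.08, 0.00 and 0.01 in treated against control HSF-6(8), treated HSF-6(S9) against control HSF-6(8) and between the treated sublines. MYC, a let-7 target, had the largest change of this list against control, at -0.47 ± 0.27 in treated HSF-6(8) and -0.86 ± 0.27 in treated HSF-6(S9) (limma adjusted p = 0.253). The NuRD subunits, a deacetylase complex that SALL4 binds, had 29 tested probe sets with medians of 0.15, 0.09 and 0.02. The PRDM14 partners had 10 tested probe sets with medians of 0.26, 0.20 and -0.06, EED of Polycomb at 0.66 ± 0.21 (limma adjusted p = 0.386) in treated against control HSF-6(8). Of the SOX relatives 12 probe sets were tested, with medians of 0.75, 0.88 and -0.07. SOX11, expressed in neural progenitors, was at 1.48 ± 0.32 (204914_s_at, limma adjusted p = 0.114) and 1.47 ± 0.28 (204915_s_at, adjusted p = 0.0805) in treated HSF-6(S9) against control HSF-6(8). In treated HSF-6(8) SOX11 204914_s_at read 4083, 4155 and 2776, against 1688, 1603 and 2482 in control HSF-6(8). There SOX11 204915_s_at read 3213, 3167 and 1665, against 1451, 1457 and 1530 in control HSF-6(8). SOX17, an endoderm factor, was at 2.08 ± 0.58 (230943_at, limma adjusted p = 0.280) in treated against control HSF-6(8), and at 1.28 without the third treated HSF-6(8) array. Its other probe set, 219993_at, was at 1.81 ± 0.60 (limma adjusted p = 0.422), and at 0.99 without that array.

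**Figure D4:**
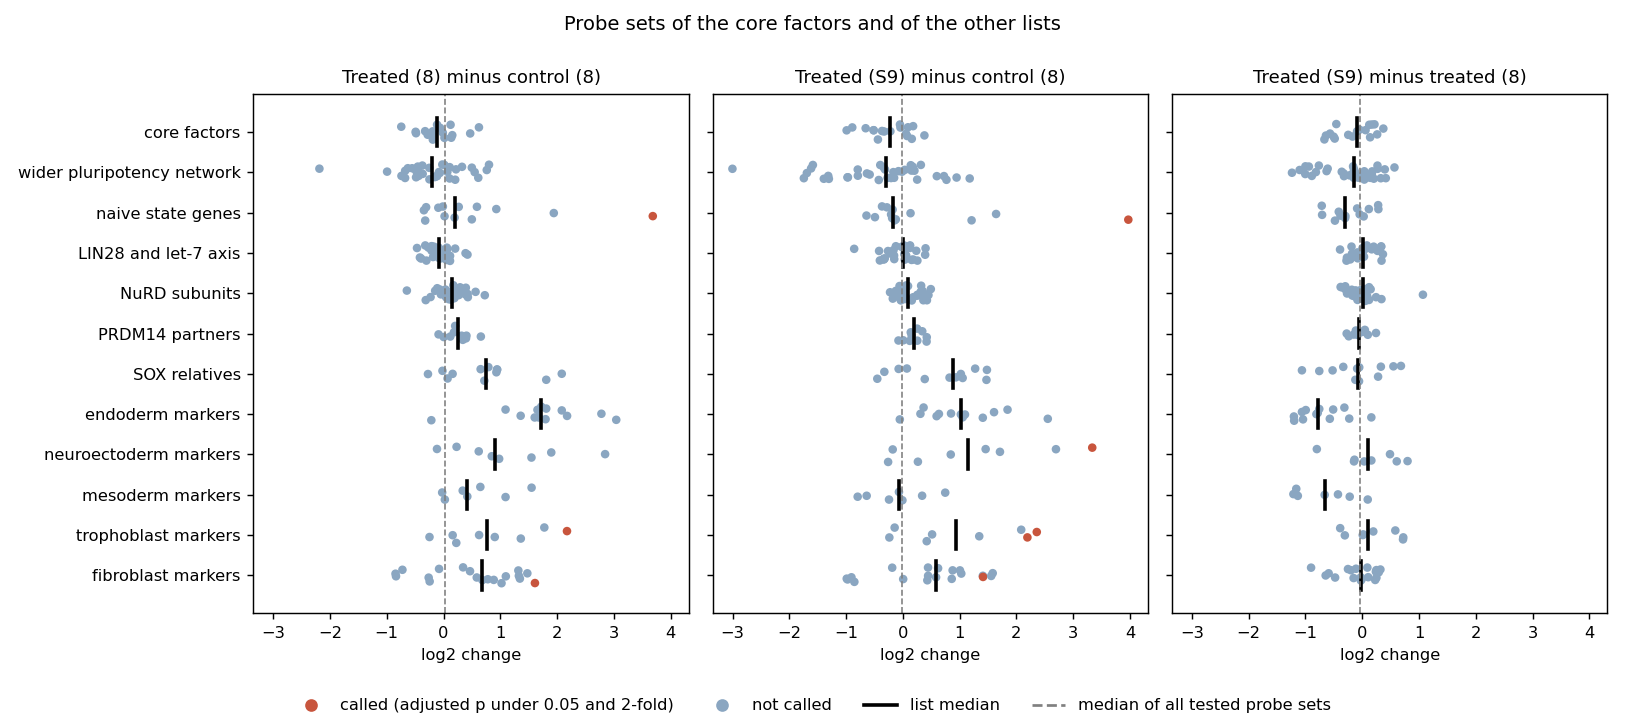
Log2 changes of all tested probe sets of the core factors and of 11 other lists, with list medians as black bars, the median of all tested probe sets as a dashed line and called probe sets in red, with one panel for treated against control HSF-6(8), one for treated HSF-6(S9) against control HSF-6(8) and one between the treated sublines. The core factors have no red point and medians of -0.11, -0.22 and -0.09, while red points are DPPA5, GATA3 and FN1 in both panels with control and PAX3 in the second.

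Markers of other cell types were read beside the core factors. The summed signal of the 8 endoderm markers was 2616, 3531 and 17359 in treated HSF-6(8) and 2592, 3266 and 3040 in treated HSF-6(S9), against 1528, 1477 and 1768 in control HSF-6(8). All treated arrays were above all controls, and the third treated HSF-6(8) array, on which NANOG and LEFTY1 were the highest of their group, stood far above the rest. That array was also highest in the sums of the 6 mesoderm markers, at 4432 against 1013 to 1617 on the other arrays, and of the 7 fibroblast markers, at 70485 against 28211 to 62190. Of the mesoderm markers, MIXL1 231746_at read 1541 and TBXT 206524_at 884 on that array, each the highest of all 9 arrays. HAND1 220138_at was not the highest of its group there, and MESP1 224476_s_at was the lowest of its group. Fibroblast sums were 42561 to 70485 in treated HSF-6(8) and 41969 to 62190 in treated HSF-6(S9), against 28211 to 28869 in control HSF-6(8). These sums weigh bright probe sets most, and the fibroblast markers did not all move alike. COL1A1 202311_s_at read 511 to 977 in treated HSF-6(8) and 253 to 533 in treated HSF-6(S9), against 229 to 272 in control HSF-6(8). DCN 211813_x_at read at most 64.2 in treated HSF-6(S9), below all controls, which read at least 70.8. In treated HSF-6(8) DCN 211813_x_at overlapped the controls. Neuroectoderm sums were 6501 to 9196 in treated HSF-6(8) and 6968 to 10688 in treated HSF-6(S9), against 5657 to 6195 in control HSF-6(8), and trophoblast sums, over 5 of 6 markers, were 1813 to 2656 and 2097 to 3101, against 781 to 1214. Of these markers, SOX1 was below the array median on every treated HSF-6(8) and control array, ZIC1, MESP1 and LUM on every treated HSF-6(S9) array, LUM also and FOXA2 and CGA on every control array, and CDX2 on all 9 arrays. The part of such cells in the levels of the core factors was not tested.

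Of the marker probe sets, limma called 1 of 8 trophoblast and 1 of 19 fibroblast ones in treated against control HSF-6(8), beside 0.3% of all tested. Called in treated HSF-6(S9) against control HSF-6(8) were 2 of 8 trophoblast, 1 of 19 fibroblast and 1 of 8 neuroectoderm ones, beside 0.389%. GATA3 209604_s_at rose by 2.17 ± 0.22 (limma adjusted p = 0.00413) in treated HSF-6(8) and by 2.19 ± 0.22 (adjusted p = 0.00441) in treated HSF-6(S9), and its adjusted p stayed at or under 0.0556 in every setting run. FN1 212464_s_at rose by 1.61 ± 0.22 (limma adjusted p = 0.0212) and 1.41 ± 0.22 (adjusted p = 0.0382) in the same order. PAX3 231666_at rose by 3.34 ± 0.52 (limma adjusted p = 0.0377) in treated HSF-6(S9). In treated HSF-6(8) PAX3 was uncalled at 2.85 ± 0.52 (limma adjusted p = 0.0877), with every treated array above every control. Between the treated sublines the PAX3 change was 0.49. A further GATA3 probe set, 209602_s_at, rose by 2.36 ± 0.31 (limma adjusted p = 0.0159) in treated HSF-6(S9), a call kept in 15 of 21 alternatives. In treated HSF-6(8) this probe set was uncalled and read 80.4, 181 and 91.2, against 27.8, 15.0 and 21.3 in control HSF-6(8). Leaving out each of the 9 arrays in turn, the FN1 call was kept 5 times in treated HSF-6(8) and 1 time in treated HSF-6(S9), and the PAX3 call 1 time. Without the second treated HSF-6(S9) array the PAX3 change was 3.99 in treated HSF-6(S9) against control HSF-6(8) and 1.14 between the treated sublines. None of the endoderm or mesoderm probe sets was called by limma. An unadjusted limma p under 0.05 was seen for 10 of 13 endoderm and 1 of 7 mesoderm probe sets in treated against control HSF-6(8). There it was also seen for 4 of 8 neuroectoderm, 3 of 8 trophoblast and 9 of 19 fibroblast probe sets, beside 7.52% of all tested. In treated HSF-6(S9) against control HSF-6(8) the counts were 4 of 13, 1 of 7, 5 of 8, 4 of 8 and 8 of 19 in that order, beside 11.3%. In treated against control HSF-6(8), GATA6, an endoderm factor, was at 3.04 ± 0.64 (limma adjusted p = 0.138). TTR, a hepatic and yolk sac transport protein, was at 2.78 ± 0.73 (adjusted p = 0.250). GATA6 was at 2.13 and TTR at 2.10 when the third array was left out of the treated HSF-6(8) group. Without the first treated HSF-6(8) array GATA6 was at 3.68, and without the third control array TTR was at 3.57. In treated HSF-6(S9) against control HSF-6(8), GATA6 was at 1.84 ± 0.64 (limma adjusted p = 0.309) and TTR at 2.55 ± 0.73 (adjusted p = 0.212). There TTR was at 3.34 without the third control array. For both genes every treated array of either subline was above every control array.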

How the data were processed

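The deposited table holds MAS5 signal intensities on a linear scale, made by the authors with Affymetrix Expression Console and MAS5, per the submitters' processing notes, which the sources used here give with no version number. Trimmed of 2% at each end, the mean signal was about 500.1 on every array, so arrays were already scaled. Probe sets were named from the platform annotation: 41091 had 1 gene, 1801 several and 11721 none, with 62 controls left out. A probe set was tested if at least 3 of 9 arrays exceeded their own median. limma 3.58.1 in R 4.3.3 (lmFit, eBayes) fitted 3 group means to log2 values of the deposited signal + 16. Tests were two-sided, with Benjamini-Hochberg adjustment over all 29328 probe sets. The same fit was run on simulated data with noise independent between arrays, which did not include the shift shared by the third arrays. The number of arrays limits the precision.

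All member probe sets are named. Of each other list the called probe sets, up to 3, or the 2 largest changes were candidates for naming. The members and lists were chosen with earlier results of these data known. Arrays with the same prime mark deviated together from their group means in all pairs (r = 0.12 to 0.59), which meets the rule used here for pairing, though the pairing comes from the data and not from the labels, and first and second arrays correlated as much across marks (up to 0.38). The 22 alternatives changed the value added, the filter, the scaling, the variance model, the blocks or the arrays and probe sets used.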

Additional observations from a re-analysis of the deposited data

How the results depend on the processing

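No member probe set was called in any of the 22 alternatives, in any comparison. Uncalled changes carry no direction here, and in at least 1 alternative the sign differed for 8 of 17 members in treated against control HSF-6(8), 9 in treated HSF-6(S9) against control HSF-6(8) and 7 between the treated sublines. The calls over all probe sets, which set the background, ranged from 37 to 214 (88 as reported), 28 to 295 (114) and 0 to 1 (0) in these comparisons. Leaving out 1 array at a time gave 42 to 111, 36 to 146 and 0. The 1 call between the treated sublines came with 1 added to each value, with quantile normalization or with median centring. Without a filter, which tests more probe sets, they were 53, 59 and 0, with the 75th percentile filter 48, 76 and 0, with the first and second arrays only 46, 47 and 0, and with only the 6 arrays compared 54, 62 and 0. The fit with the replicate block gave 148, 233 and 0, the third arrays as a block 214, 295 and 0, and the replicate block changed no call of a member, whose counts stayed at 0. With the 2 brightest arrays left out, chosen after seeing the data, they were 37, 28 and 0; the cause was not tested. SOX2 214178_s_at failed the stricter filter, so 21 alternatives apply to it. Dim probe sets such as SOX2 214178_s_at and DPPA4 241199_x_at are limited by signal over background, since the table held no detection calls.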
